A study of Mus musculus with 15 samples.

Results

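The ACF1 segments of resilient mice were compared with those of susceptible mice on the 19 autosomes. A segment is an interval given the state E2, the state that takes up the smaller part of the genome, in the deposited division of each genome into 2 states. The lists do not tell whether E1 or E2 is the bound state. The resilient list held 587 such segments and the susceptible list 990, together 1577 of the 2598 segments that the 3 deposited ACF1 lists hold on all chromosomes. A segment counted as matched when it overlapped a segment of the other list by at least 1 bp. The 631 autosomal segments of the control list are given beside them as the level in undefeated mice.

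The tissue was the nucleus accumbens, a part of the ventral striatum that serves reward and motivated behaviour, from C57BL/6 mice. Resilient and susceptible mice had both been through chronic social defeat stress, in which an aggressive CD1 mouse attacks the test mouse on each of 10 days; a social interaction test then sorted them, susceptible mice being those that avoid another mouse. Control mice were not defeated. The tissue was taken 48 hours past the final defeat, punches from 10 mice were pooled per replicate, and sheared chromatin was precipitated with an antibody against ACF1, amplified with 19 PCR cycles and read at 100 bp. The labels speak of replicates, but 1 list was deposited per group, so no value here has a spread between replicates, no test of a difference was possible, and the depth behind each list is unknown. Segment lists hold no expression values, so the dissected tissue could not be checked against marker genes, and in pooled tissue a change within cells and a change in the mix of cells cannot be told apart.

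ACF1, the product of Baz1a, is the large accessory subunit of the ACF complex. Its partner SNF2H is an ATPase of the ISWI family that slides nucleosomes along DNA and sets them at even spacing. ACF1 helps the ATPase sense the DNA between nucleosomes, and the complex is known for regular nucleosome arrays, for chromatin assembly and for replication through compact chromatin.

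Several of the widest segments lay over genes whose promoters have near-identical copies. The promoter sequences of 6 genes are shown because these genes carry the widest matched or unmatched segments or are the copies of such a gene. Each is the 250 bases before the gene's start in RefSeq on GRCm38.p6, read 5′ to 3′ on the gene's strand, and capitals mark runs of at least 100 bases that occur exactly, on either strand, in the promoter of the named partner.
C130026I21Rik, minus strand of chr1:85270567-85270816, partner A530032D15Rik: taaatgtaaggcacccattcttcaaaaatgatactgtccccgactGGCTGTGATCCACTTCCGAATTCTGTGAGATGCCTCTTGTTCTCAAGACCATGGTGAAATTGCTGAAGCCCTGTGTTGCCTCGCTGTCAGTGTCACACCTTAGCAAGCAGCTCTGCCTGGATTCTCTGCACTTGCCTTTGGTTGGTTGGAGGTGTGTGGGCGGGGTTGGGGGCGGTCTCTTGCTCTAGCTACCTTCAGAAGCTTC
A530032D15Rik, minus strand of chr1:85109854-85110103, partner C130026I21Rik: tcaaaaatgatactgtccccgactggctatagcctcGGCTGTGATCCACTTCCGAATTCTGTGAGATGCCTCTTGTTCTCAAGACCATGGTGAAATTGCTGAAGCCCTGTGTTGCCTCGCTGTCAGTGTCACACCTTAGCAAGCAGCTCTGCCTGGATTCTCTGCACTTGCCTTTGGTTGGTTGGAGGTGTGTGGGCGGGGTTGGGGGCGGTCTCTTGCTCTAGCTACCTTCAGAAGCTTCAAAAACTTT
Tcp10c, plus strand of chr17:13354322-13354571, partner Tcp10a: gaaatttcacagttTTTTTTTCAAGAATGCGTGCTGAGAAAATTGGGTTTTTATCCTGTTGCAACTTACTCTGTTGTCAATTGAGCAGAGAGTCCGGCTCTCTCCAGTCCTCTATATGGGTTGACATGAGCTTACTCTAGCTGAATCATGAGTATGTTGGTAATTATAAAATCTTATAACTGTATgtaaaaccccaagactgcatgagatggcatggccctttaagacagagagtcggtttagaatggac
Tcp10a, plus strand of chr17:7324410-7324659, partner Tcp10c: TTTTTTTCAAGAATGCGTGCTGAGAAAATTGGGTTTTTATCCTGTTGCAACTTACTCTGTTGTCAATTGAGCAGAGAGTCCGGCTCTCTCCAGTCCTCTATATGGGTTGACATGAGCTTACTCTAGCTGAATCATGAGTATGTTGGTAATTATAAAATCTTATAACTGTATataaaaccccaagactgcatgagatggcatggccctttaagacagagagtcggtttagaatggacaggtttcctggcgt
Gm15319, minus strand of chr8:20363203-20363452, partner Gm21119: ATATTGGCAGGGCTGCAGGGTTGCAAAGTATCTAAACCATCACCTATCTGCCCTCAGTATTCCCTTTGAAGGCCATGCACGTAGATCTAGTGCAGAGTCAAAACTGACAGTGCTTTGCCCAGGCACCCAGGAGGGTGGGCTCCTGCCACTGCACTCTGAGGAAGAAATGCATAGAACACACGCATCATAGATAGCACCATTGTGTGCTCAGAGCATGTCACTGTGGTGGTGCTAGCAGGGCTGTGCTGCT
Mroh2a, plus strand of chr1:88226770-88227019, no partner: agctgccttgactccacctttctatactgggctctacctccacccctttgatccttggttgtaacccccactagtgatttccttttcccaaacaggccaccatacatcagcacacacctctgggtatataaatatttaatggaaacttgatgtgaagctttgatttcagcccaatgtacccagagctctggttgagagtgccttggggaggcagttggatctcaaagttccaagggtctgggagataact

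C130026I21Rik and A530032D15Rik, whose starts both lists covered, shared 205 and 214 of these 250 bases with each other. Gm15319 and Gm21119, also covered at the start in both lists, had the same 250 bases, the copy of Gm21119 lying at chr8:20614677-20614926. Tcp10c, covered in the susceptible list alone, shared 171 bases with Tcp10a. Mroh2a, the gene with the most bases covered in the susceptible list alone, held no such run. How reads with more than 1 possible placement were handled is not given in the sources used here. All segment and gene positions below are on mm9 and cannot be laid onto these GRCm38.p6 positions.

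The susceptible list had more segments than the resilient list and covered more of the genome, while the median width on the autosomes was the same. It held 990 segments over 3214 kb, or 0.130% of the 2472 Mb of autosomes, against 587 over 1880.6 kb, or 0.0761%. The control list, at 631 segments over 1733.4 kb, lay near the resilient list. Susceptible numbers were thus 1.69 times and lengths 1.71 times the resilient ones, a surplus of 403 segments and 1333.4 kb. The median width was 1000 bp in each list, with quartiles of 800 and 2600 bp in the resilient and 800 and 2200 bp in the susceptible list. Segments of 1000 bp or less made up 53.2% of the resilient and 60.3% of the susceptible list. Only the resilient list had segments under 600 bp, 4 in number, and the widest single segment was 85600 bp there and 120200 bp in the susceptible list.

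Every autosome had more segments and more covered length in the susceptible list. The ratio of numbers ran from 1.08 on chromosome 18 (24 against 26 segments) to 3.06 on chromosome 12 (16 against 49), with a median of 1.72. The ratio of lengths ran from 1.21 on chromosome 18 to 3.26 on chromosome 17, where the resilient list covered 65.4 kb and the susceptible list 213 kb, and was 3.24 on chromosome 14, at 47.4 against 153.8 kb. Chromosome 1 carried the most length in both lists, 345 kb resilient and 534.6 kb susceptible, followed by chromosome 4 with 314.8 and 470.2 kb. The 4 chromosomes with the largest surplus (1, 4, 17 and 8) held 633 kb of it, or 47.5%.

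**Figure D1:**
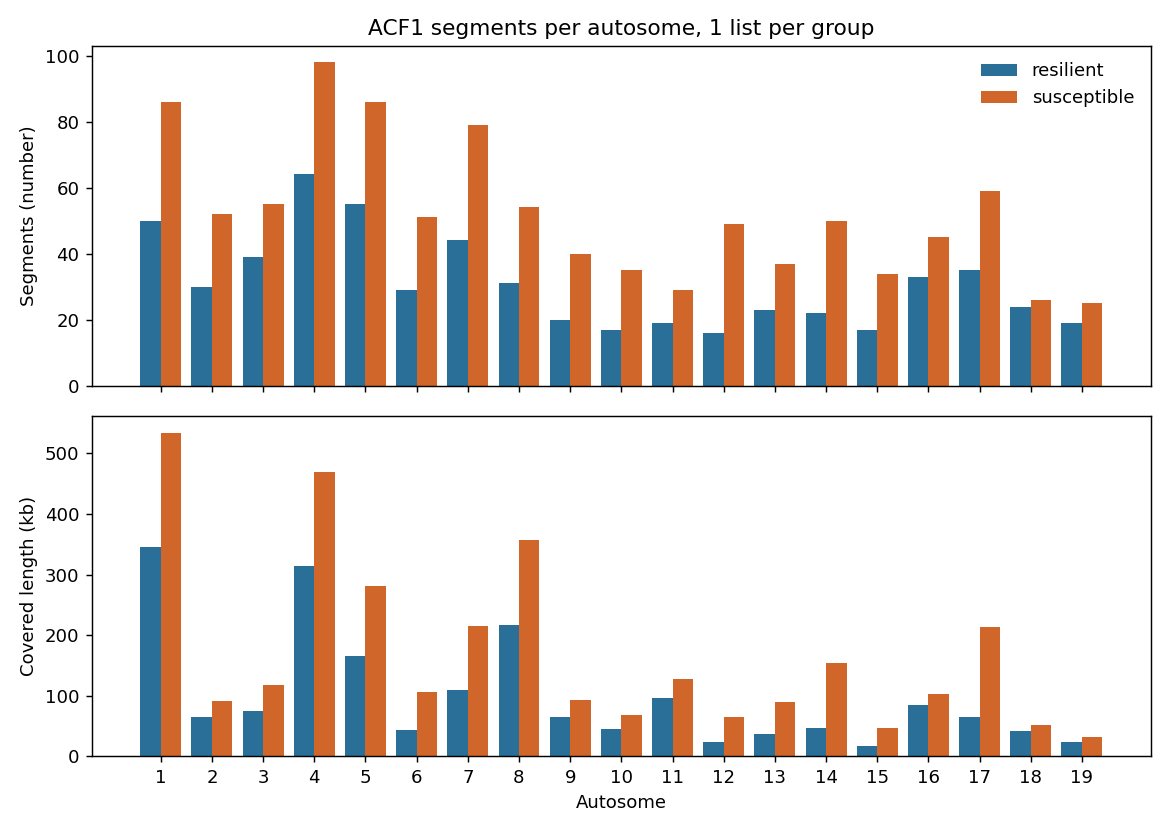
Number of ACF1 segments (upper panel) and covered length in kb (lower panel) on each autosome, with 1 bar for the resilient and 1 for the susceptible list and no error bars, as each group has 1 list. The susceptible bar is the taller on all 19 autosomes in both panels, by the least on chromosome 18.

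A larger part of the resilient list than of the susceptible list was matched. In the resilient list 295 segments (50.3%) overlapped a susceptible segment, and in the susceptible list 279 (28.2%) overlapped a resilient one. The resilient share was the higher on 19 of 19 autosomes. As the matched numbers were close and the susceptible list was the longer on all 19, this order follows from the sizes of the lists. The smallest stretch shared within a matched group was 600 bp, so that the 1 bp limit decided no match, while 3 unmatched resilient and 4 unmatched susceptible segments lay within 1 kb of the other list. In bases, 1326.6 kb had the state E2 in both lists, which was 70.5% of the resilient and 41.3% of the susceptible length. Both shares have the same numerator, so they differ only by the length of each list.

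Matched segments were the wider ones in both lists. Their median width was 1400 bp in the resilient and 1800 bp in the susceptible list, against 800 and 1000 bp for unmatched segments. All 37 resilient segments of 10 kb or more were matched, as were 61 (84.7%) of the 72 susceptible ones. Among segments of 600 to under 1000 bp the matched share was 30.6% in the resilient and 14.1% in the susceptible list. It was 59.4% and 26.0% from 1 kb to under 2 kb, 56.5% and 34.6% from 2 kb to under 5 kb, and 79.5% and 50.7% from 5 kb to under 10 kb. The share was therefore lower in the susceptible list in each of these width classes.

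**Figure D2:**
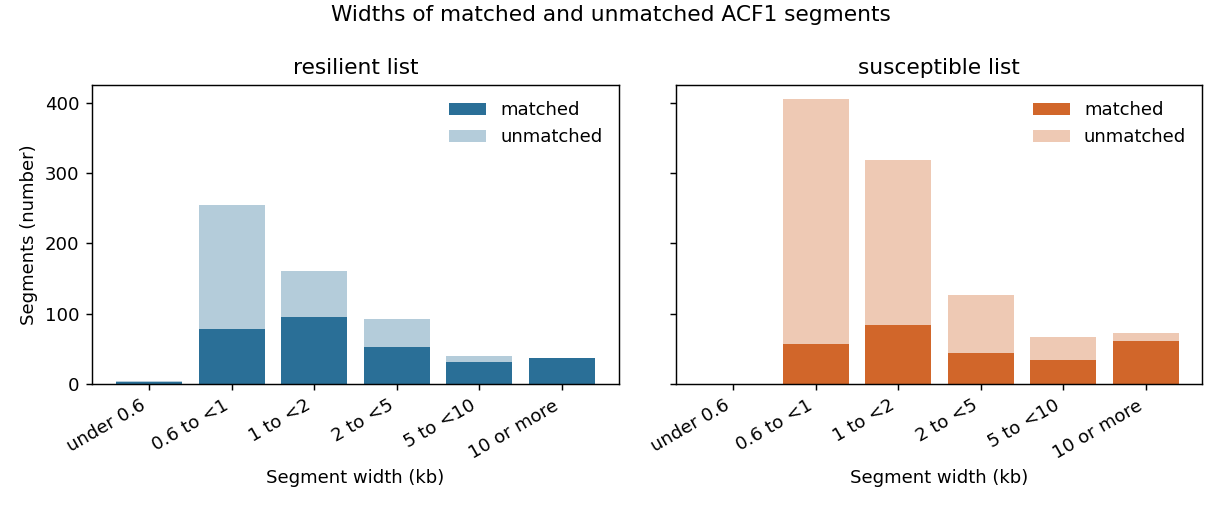
Number of ACF1 segments by width in kb in the resilient (left) and the susceptible list (right), with matched segments in full and unmatched segments in pale colour. Most segments under 1 kb are unmatched in either list, and most of those of 10 kb or more are matched.

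The surplus of the susceptible list came from both kinds of segment. Unmatched segments gave 779 kb (58.4%) of it, with 711 susceptible segments over 1173 kb against 292 resilient segments over 394 kb. Matched segments gave 554.4 kb (41.6%), since they covered 2041 kb in the susceptible and 1486.6 kb in the resilient list, 1.37 times as much. Unmatched segments were mostly narrow, 78.1% of the resilient and 75.2% of the susceptible ones being 1000 bp or less. Their median distance to the other list was 628.7 kb in the resilient and 1274.2 kb in the susceptible case. Within 10 kb of the other list lay 23 (7.88%) of the resilient and 29 (4.08%) of the susceptible unmatched segments. Susceptible segments were measured to the list with fewer segments, so the distances cannot be compared directly. No distance for randomly placed segments was computed, so whether unmatched segments lay near to or far from the other list was not tested. The control list overlapped 21 (7.19%) of the resilient and 48 (6.75%) of the susceptible unmatched segments, but 233 (79.0%) and 227 (81.4%) of the matched ones.

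Linking every overlapping pair gave 276 matched groups, and where such a group was cut into pieces the cuts lay mostly in the resilient list. In 257 groups 1 resilient segment faced 1 susceptible segment. In 16 groups several resilient segments, 34 in all, faced 1 susceptible segment each. The reverse, 1 resilient against several susceptible segments, was seen in 2 groups, and several faced several in 1. The 16 groups covered 445 kb in the resilient and 607.2 kb in the susceptible list, and each of the 16 had more susceptible length. This direction follows largely from how the groups are defined, as 1 segment that spans several others also covers the gaps between them. In the same way, the 2 reverse groups had more resilient length. Their 18 resilient gaps had widths between 2600 and 17600 bp (median 6900 bp) and added up to 145.6 kb. The net difference in covered length over the 16, which also counts the unequal outer ends, was 162.2 kb. The control list had a segment in 14 of the 16, a single one in 7 and several in 7. When segments of a list within 10000 bp of each other were joined first, 7 groups of this kind were left.

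The largest split group was on chromosome 8 over Gm15319, 2610005L07Rik and 6820431F20Rik, 3 genes known by provisional symbols. The susceptible list had 1 segment at chr8:19917001-20037200, of 120200 bp. The resilient list had 3 segments there, of 62000, 34600 and 8000 bp, parted by gaps of 3800 and 6800 bp, and the control list had 2, of 63800 and 47400 bp. The nearest group upstream, chr8:19906601-19909000, was the same 2400 bp in both lists. The one beyond it, chr8:19857001-19900200, was 1 susceptible segment of 43200 bp against 3 resilient segments with 11600 bp in all.

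The group on chromosome 11 covered Sfi1, which encodes a centrin-binding protein of the centrosome, and the pseudogenes Pisd-ps1 and Pisd-ps3. The susceptible list had 1 segment, chr11:3011801-3100400, of 88600 bp. The resilient list had chr11:3011801-3030400 and chr11:3048001-3100400, of 18600 and 52400 bp, and so ended at the same outer bases with a gap of 17600 bp between. The control list also had 2 segments, of 28800 and 54800 bp, and its gap was narrower, between 3040600 and 3045601. Sfi1 was covered over 45466 bp in the resilient, 61614 bp (the whole gene) in the susceptible and 56614 bp in the control list. The resilient gap thus took in the end of the gene opposite to its start, and the start itself was covered in all 3 lists.

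On chromosome 1, 2 of the split groups held immune and uncharacterised genes. Sp110 and Sp140 encode proteins of nuclear bodies in immune cells. They lay under 1 susceptible segment of 71400 bp at chr1:87466801-87538200, under 2 resilient segments of 62800 and 1800 bp with a gap of 4400 bp, and under 1 control segment of 76000 bp. Sp110 was covered over its whole 26992 bp in each list, and Sp140 over 36323 bp in the resilient, 40923 bp in the susceptible and 44334 bp in the control list. The group at chr1:85229401-85332800, over C130026I21Rik, measured 97200 bp in 2 resilient segments and 100800 bp in 1 susceptible segment. Further upstream, the group at chr1:85064001-85115000, over A530032D15Rik, measured 40400 and 51000 bp, and both genes were covered in full in all 3 lists.

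Both reverse splits were on chromosome 4. In Gm13152, a predicted gene, the resilient list had 1 segment of 35000 bp, chr4:146779601-146814600, against 2 susceptible segments with 26000 bp and 25200 bp in the control list. Over Gm13251, also a predicted gene, the resilient list had 1 segment of 62400 bp, from 145699401 to 145761800. The susceptible list had 2 with 54800 bp in all, the larger of 35600 bp, and the control list held 26000 bp in the group. Gm13251 was nevertheless covered over all of its 20411 bp in both stressed lists and over 4809 bp in the control list.

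The 257 pairs of 1 segment to 1 segment differed mainly when they were wide. Both ends were the same in 110 pairs (42.8%). The susceptible segment was the wider in 109 pairs, by a median of 2400 bp and 494.2 kb in all, and the resilient segment in 38, by a median of 1100 bp and 80.8 kb in all. Among the 130 pairs whose wider member was under 2 kb, 90 were identical, 23 were wider in the susceptible and 17 in the resilient list. Among the 47 pairs of 10 kb or more, 3 were identical, 39 were wider in the susceptible and 5 in the resilient list. The susceptible segment was at least 2-fold wider in 54 pairs, and the resilient one in 14. Over all 276 groups, 125 had more susceptible length, 41 more resilient length and 110 the same.

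**Figure D3:**
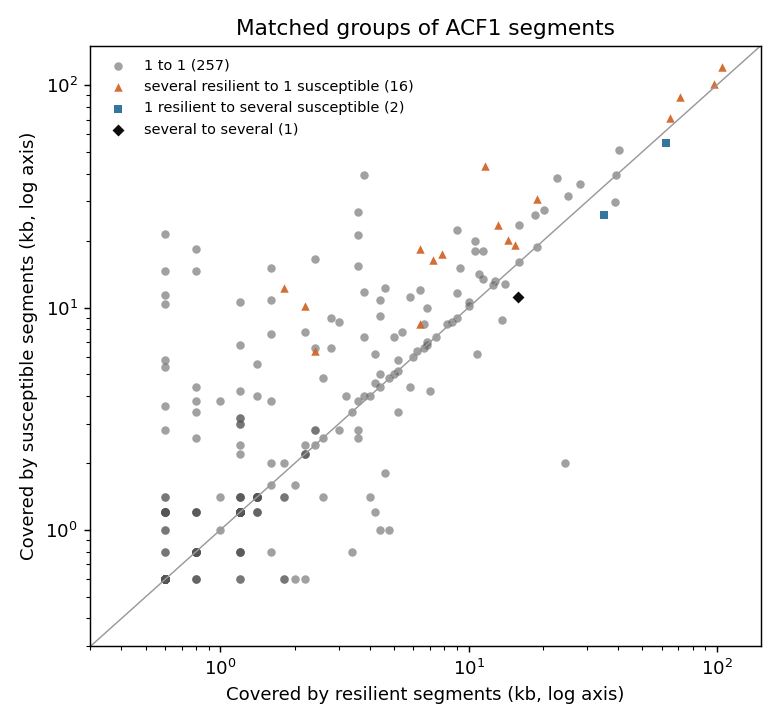
Length in kb covered by resilient (x) and susceptible segments (y) in each of the 276 matched groups, on log axes, with the diagonal of equal length and 1 symbol for each kind of group. The 16 groups of several resilient segments against 1 susceptible segment are above the diagonal, which follows largely from how they are defined. The point far below the diagonal is the chromosome 16 group with 24400 bp in the resilient list and 2000 bp in the susceptible list.

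The largest difference within a matched group was at the end of the Ugt1a cluster on chromosome 1. The susceptible segment, chr1:90120001-90159400, was 39400 bp wide, and the resilient one, chr1:90117201-90121000, was 3800 bp wide and shared 1000 bp with it. The control list had segments of 21200 and 1400 bp there. The susceptible segment covered the whole 35270 bp of Mroh2a, a gene of the maestro heat-like repeat family. It also reached into Hjurp, the chaperone that places the centromeric histone CENP-A, of which 6170 bp in 2 segments were covered. Mroh2a had 0 bp in the resilient and 14406 bp in the control list, and Hjurp 0 bp in both. As these genes lie under the same segment, they are not separate events.

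Other groups with a large surplus of susceptible length were the chromosome 8 group at 19857001 named above, 1 at chr5:14970801-14997800 (3600 against 27000 bp, at the pseudogene Speer8-ps1) and 1 at chr17:13498201-13519600 (600 against 21400 bp, with no gene named in the tables), besides the Sfi1 group. A single group among the 6 with the largest difference went the other way. At chr16:3243401-3269000 the resilient list covered 24400 bp, the susceptible list 2000 bp and the control list 5000 bp, with 800 bp shared. The 6 groups together gave 106.6 kb of the net 554.4 kb from matched segments.

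The widest unmatched segments were wider in the susceptible list, and several stood close together on chromosome 17. The first, chr17:13407201-13435400, was 28200 bp wide and covered Smok2a and Smok2b, which encode sperm motility kinases. Another, chr17:13534201-13553400, of 19200 bp, covered the start of Tcp10c, a t-complex protein gene. The others were chr7:39198801-39225800 of 27000 bp, chr4:145666601-145684600 of 18000 bp over 1700095A21Rik and Gm13247, and chr14:43932401-43948000 and chr14:43972601-43988000 of 15600 and 15400 bp. The 6 widest unmatched resilient segments measured 6600 to 9200 bp. They included chr4:146355801-146365000 of 9200 bp, which lay 2.6 kb from a susceptible segment, chr7:23587201-23595200 of 8000 bp in the predicted gene Gm6902, and chr3:25416201-25423400 of 7200 bp in Nlgn1. The remaining 3, at chr7:34544201-34551600, chr16:3297401-3304000 and chr2:86766801-86773400, had no gene named in the tables.

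Much of the covered length was gathered in a few stretches of the genome. When segments of either list less than 250 kb apart were chained, the 10 chains with the most susceptible length, out of 870, held 974.6 kb (51.8%) of the resilient and 1546 kb (48.1%) of the susceptible length. They gave 42.9% of the surplus. The longest ran along chr4:144954401-147368400 and held 274.8 kb in the resilient and 382.4 kb in the susceptible list. The chain with the largest ratio of the 10 was chr17:13371401-13746400, with the Smok2 and Tcp10c segments, at 4.2 against 104 kb, 24.8 times as much, and 18.8 kb in the control list. The chain chr14:43554801-44324000 held 24.8 against 99.8 kb, and chr1:90106401-90201800, with Mroh2a, 9.8 against 61 kb. By contrast, chr9:2999401-3310600 held 44 and 44.4 kb, and chr16:3111601-3490600 held 50.8 kb in each. Outside the 10 chains the lists still differed, with 486 against 869 segments and 906 against 1668 kb.

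Genes could be placed only where the authors' deposited H3 tables give their bounds, which they do for 7787 autosomal genes making up 25.9% of the autosomes. Segments were less often inside these genes than that share, with 18.7% of resilient and 19.4% of susceptible segments touching one. The resilient list touched 106 genes and the susceptible list 190. Of these, 75 were touched in both lists (0.963% of the genes with bounds), 115 in the susceptible list alone (1.48%) and 31 in the resilient list alone (0.398%). The control list touched 66 (88.0%) of the 75, but 14 (12.2%) of the 115 and 3 (9.68%) of the 31. Most genes of 1 list only were touched over 1000 bp or less, 72 (62.6%) of the susceptible and 27 (87.1%) of the resilient ones. The median length of the genes was 58.6 kb for those in both lists, 74.5 kb for susceptible only, 85.2 kb for resilient only and 34.6 kb for those in neither, so touched genes were the longer ones at the median.

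Among the 75 genes of both lists, 26 had more bases covered in the susceptible list, 19 more in the resilient list and 30 the same number. Overlapping genes share segments, and 8 of the 19 were Ugt1a genes under the same pair of segments at chr1:90106401-90110400 (3600 bp resilient, 2800 bp susceptible). With genes that share a segment counted once, the numbers were 22, 12 and 29. Over all genes with bounds, 1.81% had more susceptible and 0.642% more resilient bases. The 10 genes of both lists with the largest difference were wider in the susceptible list but for Nlgn1. Gm13152 had 81200 bp in the resilient and 111200 bp in the susceptible list, in 9 segments each, and 59000 bp in the control list. Abcg2, an efflux transporter of the blood-brain barrier, had 800 bp in the resilient, 15535 bp in the susceptible and 12200 bp in the control list, and its start lay in the susceptible segment only. Zfp600, a zinc finger gene, had 25600 and 37710 bp, and Gm13242 had 20200 and 27400 bp. 2610005L07Rik, 2700054A10Rik and Speer8-ps1 had 34600, 3000 and 19600 bp in the resilient and 39033, 8600 and 23741 bp in the susceptible list.

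Nlgn1 encodes neuroligin 1, an adhesion protein of the postsynaptic side of excitatory synapses that binds neurexins. The resilient list had 10000 bp in 2 segments, chr3:25416201-25423400 and chr3:25453601-25456400. The susceptible list had 4000 bp in 1, chr3:25432201-25436200, which overlapped neither, and the control list 7800 bp in 1, chr3:25448801-25456600. The gene was thus touched in all 3 lists, at different places of its 721467 bp in the resilient and the susceptible list.

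Mroh2a led the genes with bases in the susceptible list alone. After it came Gm13247 (18000 bp) and 1700095A21Rik (17200 bp), which overlap each other and share a segment, Tcp10c (9052 bp) and 2610305D13Rik (8600 bp). Smok2a was covered in full (6471 bp). They were followed by Cyp3a41a (6400 bp), a drug-metabolising cytochrome P450, Hjurp, Prl2c4 (5718 bp), a gene of the prolactin family, and the pseudogene Cyp2c53-ps (5200 bp). Of these 10 genes, Mroh2a alone had bases in the control list. In the resilient list alone, Gm6902 had 8000 bp, Zfp735, a zinc finger gene, 3000 bp and Vmn2r37, a vomeronasal receptor, 2344 bp. 2410141K09Rik followed with 1600 bp. Tph2, which makes the enzyme of serotonin synthesis in the brain, Pard3b, a cell polarity gene, Pkp1, which encodes plakophilin 1 of desmosomes, and Zranb3, an annealing helicase, had 1000 bp each. 1700040L02Rik and 4930515L03Rik had 800 bp each. The last 2 are the first by name of 13 genes tied at 800 bp. None of the 10 had bases in the control list, but 2 of the tied genes did, D130009I18Rik (800 bp) and Zscan5b (4600 bp). A gene of 1 list only could still lie near the other: 8 of the 115 susceptible-only genes, Mroh2a, Gm13247, 2610305D13Rik and Prl2c4 among them, and 3 of the 31 resilient-only genes had a segment of the other list within 10000 bp.

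**Figure D4:**
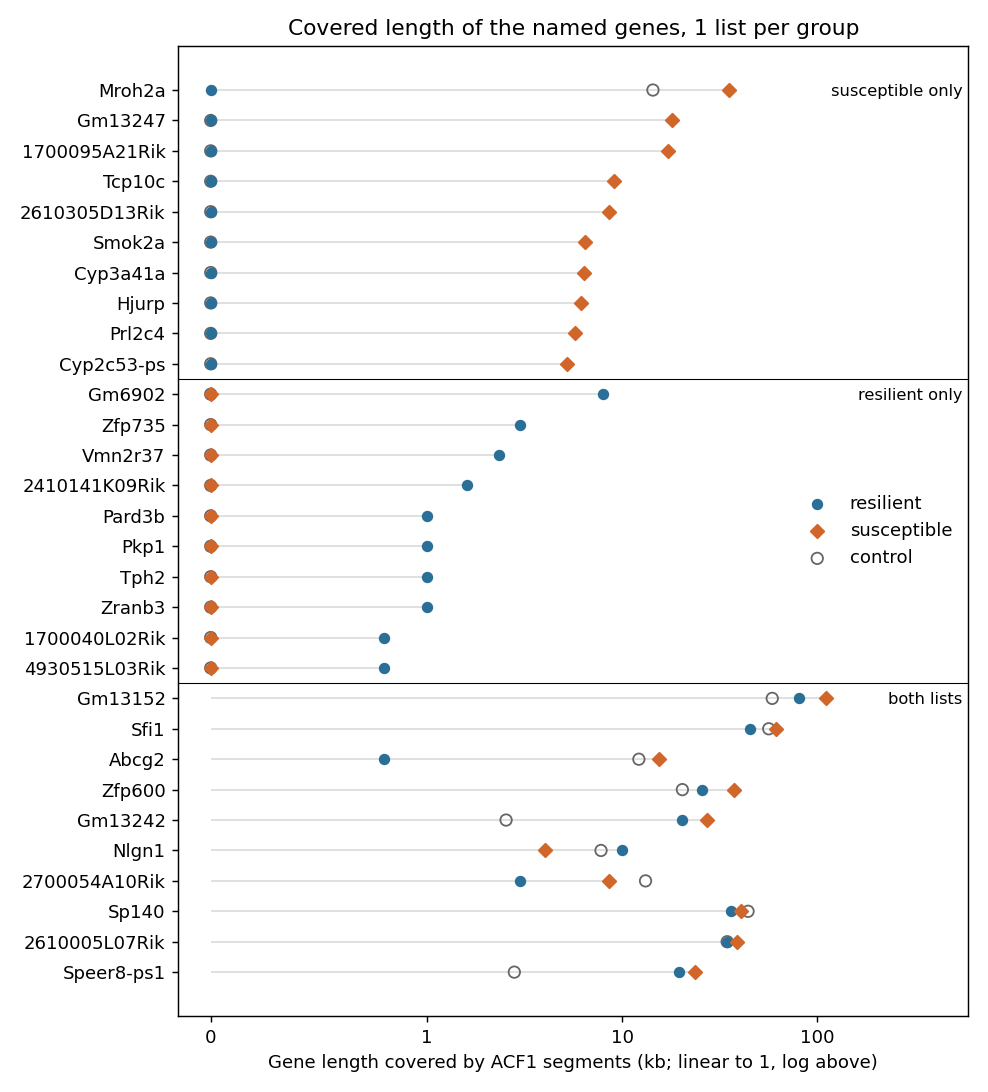
Length of each named gene covered by ACF1 segments in kb (linear up to 1, log scale above), with 1 symbol each for the resilient, susceptible and control lists, for the 10 leading genes of the susceptible list alone, of the resilient list alone and of both. Mroh2a reaches 35270 bp in the susceptible list and 0 in the resilient list, the resilient-only genes are at 8 kb or less, and Nlgn1 is the 1 gene of the lower block with more resilient length.

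The shares of touched genes in the lists below stand beside 2.84% of all genes with bounds, 221 genes, touched in either list. In a list of glutamate receptors and synapse organisers, 4 of the 26 genes with bounds were touched. Among these were Nlgn1 in both lists and, in the susceptible list alone, the postsynaptic scaffold gene Dlgap2 (1200 bp) and the neurexin gene Nrxn3 (800 bp). Dlgap2 also had 1200 bp in the control list. The genes of this list are long, with a median of 419 kb against 34.6 kb for untouched genes, and no share matched for length was computed. Of 12 genes in a list of chromatin remodelling genes, 2 were touched, both in the susceptible list alone. These were Smarca4 (1000 bp), which encodes the ATPase BRG1, and Hjurp, a histone chaperone gene rather than a remodeller. Of 29 adhesion and axon guidance genes, the netrin receptor gene Dcc had 800 bp in the resilient and 1000 bp in the susceptible list, and Cntnap5a had 800 bp in the resilient list. Of 20 ion channel genes, Kcnip4, a partner of voltage-gated potassium channels, had 800 bp in the resilient list and Kcnj6, an inward rectifier, 800 bp in the susceptible list. Of 13 genes of the centrosome, centromere and microtubules, Sfi1 and Macf1 (600 bp in each list) were touched in both. Hjurp, counted again here, was touched in the susceptible list alone. The limit of gene length holds for these lists too. Their median gene lengths were 90.7 kb for chromatin remodelling, 579 kb for adhesion and axon guidance, 466 kb for ion channels and 248 kb for the centrosome list.

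For markers of the cells that the tissue may hold the lists are short, and at 2.84% of all genes touched a count of 0 says little of such a list. No segment of either list touched any of the genes with bounds among markers of medium spiny neurons (6 genes), astrocytes (3), oligodendrocytes (4), endothelial cells (10) and cortical excitatory neurons (6). The same held for GABA receptors (7), stress and growth factor signalling (10), immediate early genes (2) and small RNA genes (16). Of 9 microglial and immune genes, 4 were touched, among them Sp110 and Sp140 in both lists and Runx1, a transcription factor gene (3000 bp), in the susceptible list alone. Segments do not report expression, and these counts say nothing of the cells' numbers.

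Touched genes also came from repeated and poorly characterised families, whose counts stand beside the 2.84% of all genes touched in either list and the 1.48% in the susceptible list alone. Genes named Gm were touched in 20 of 285 cases, 7 in both lists, 10 in the susceptible and 3 in the resilient list alone. Genes named Rik were touched in 27 of 629 cases, 10 in both, 11 in the susceptible and 6 in the resilient list alone. Of 38 pseudogenes, 5 were touched in both lists, namely Pisd-ps1, Pisd-ps2, Pisd-ps3, Speer7-ps1 and Speer8-ps1, and Cyp2c53-ps in the susceptible list alone. Pisd-ps1 and Pisd-ps3 overlap each other and share their segments. The 3 touched genes among 7 sperm motility kinase and t-complex genes, the 2 among 11 Skint genes and the 2 among 64 cytochrome P450 genes were all of the susceptible list alone. Smok2a and Smok2b lie under the same segment and Tcp10c in the same chain, so these 3 are not separate events. Cyp2c53-ps is counted again among the cytochrome P450 genes. By contrast, 2 of 6 Speer genes, the Speer pseudogenes already counted above, were touched in both lists. Of 272 olfactory and vomeronasal receptor genes 1 was touched in the susceptible and 2 in the resilient list alone. Of 98 Zfp genes, Zfp600 was touched in both, Zfp936 (2243 bp) and Zfp438 (1000 bp) in the susceptible list and Zfp735 in the resilient list.

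Gene starts were covered in the susceptible list alone more often than in the resilient list alone. Both lists covered the start of 17 genes (0.218% of the genes with bounds), among them Sfi1, Sp110, Sp140, Ugt1a1, the double homeobox gene Dux and Rn45s, the precursor of ribosomal RNA. The susceptible list alone covered 18 (0.231%), among them Mroh2a, Smok2a, Smok2b, Tcp10c, Abcg2, Zfp600, Zfp936 and Prdm16. The resilient list alone covered 2 (0.0257%), 4931408C20Rik and Vmn2r37. The control list covered 14 of the 17, 5 of the 18 and 0 of the 2. Some of these starts lie under the same segment, as those of Smok2a and Smok2b do, so they are not all separate events.

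Copied promoters, of the kind shown above, were found more among touched genes than among untouched ones. A run of at least 100 bases of the promoter, here from 250 bases before to 50 after the start, occurred in the promoter of another gene for 117 (2.06%) of the 5670 genes with bounds whose promoter was in the RefSeq table. The share was 8 of 44 (18.2%) for genes touched in both lists, 10 of 72 (13.9%) for the susceptible list alone, 1 of 22 (4.55%) for the resilient list alone and 98 of 5532 (1.77%) for untouched genes. Where the start itself was covered, it was 6 of 8 in both lists, 5 of 10 in the susceptible and 1 of 2 in the resilient list alone. Some of these genes are copies of one another, so the counts are not of separate families. A530032D15Rik, C130026I21Rik and Sp140 share such runs with each other, as do Gm15319 and Gm21119. All of these are among the 8 genes touched in both lists and the 6 with a covered start. In the first 5 Mb of the chromosomes lay 31 matched resilient (10.5% of that set, 220.8 kb) and 29 matched susceptible segments (10.4%, 282.8 kb). Of the unmatched segments, 7 resilient (2.40%) and 26 susceptible ones (3.66%) lay there. Over all segments the share was 6.47% in the resilient and 5.56% in the susceptible list. These shares were not set against the part of the autosomes that the first 5 Mb make up. The part that gene copies and placement along the chromosome have in the lists and in their difference was not tested.

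Nucleosome positions at the segments were read from the authors' deposited table of H3 occupancy for resilient against susceptible mice, which marks each position Up or Down. Up was taken as higher in resilient mice, the first-named group; the authors' deposited table does not state this, and the opposite reading turns every direction below. Of its 16141 autosomal positions, 49.0% were marked Up in the authors' deposited table. Within 1000 bp of matched segments the authors' deposited table had 185 positions, 39 Up and 146 Down (21.1% Up). Around segments of the susceptible list alone the authors' deposited table had 22 Up and 52 Down (29.7% Up), and around segments of the resilient list alone 10 Up and 9 Down (52.6% Up). The positions touched 72 of the 276 matched groups, 57 of the 711 susceptible-only and 14 of the 292 resilient-only segments in the authors' deposited table. Down positions thus prevailed at matched and at susceptible-only segments, while the 19 positions at resilient-only segments were split nearly evenly.

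Inside the segments the density of positions in the authors' deposited table was higher than the 6.53 per Mb of all autosomes. It was 85.9 per Mb where both lists had E2 (16 Up, 98 Down in the authors' deposited table) and 67.2 per Mb in the stretches of matched groups with susceptible E2 alone (12 Up, 36 Down). The authors' deposited table gave 50 per Mb in the stretches of matched groups with resilient E2 alone (5 Up, 3 Down), 40.9 in susceptible-only segments (11 Up, 37 Down) and 27.9 in resilient-only segments (6 Up, 5 Down). Matched groups with more susceptible length had 28 Up and 119 Down positions within 1000 bp in the authors' deposited table, and those with more resilient length 7 Up and 17 Down. Down positions were thus the more frequent in the authors' deposited table whichever list had the greater length.

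**Figure D5:**
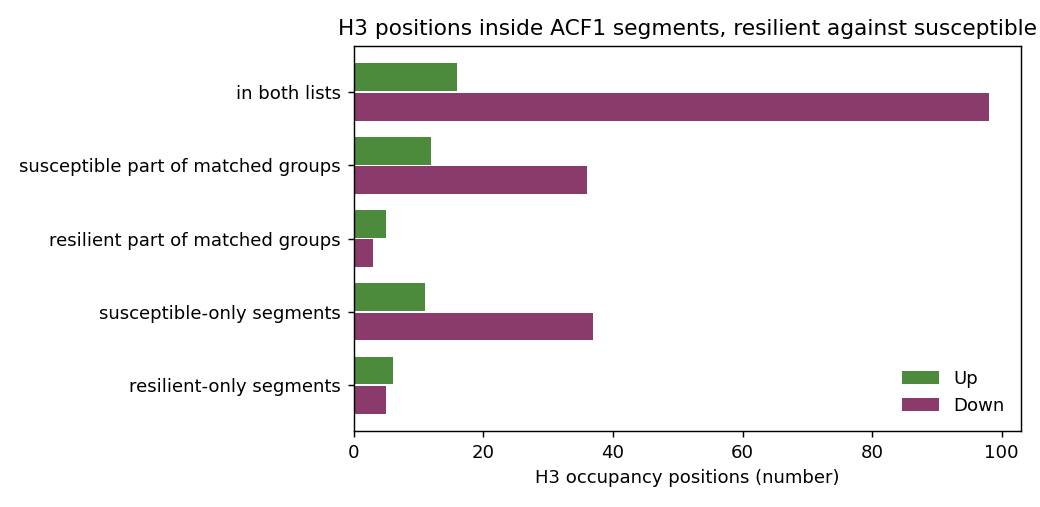
Number of positions marked Up (green) and Down (purple) in the authors' deposited table of H3 occupancy, resilient against susceptible, inside 5 kinds of ACF1 stretch. Down is the longer bar where both lists have E2 (98 against 16) and in susceptible-only segments (37 against 11), and the bars for resilient-only segments are short and nearly equal.

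A few loci held many of these positions. The group over Sfi1 alone had 33 positions in the authors' deposited table, 1 of them Up, the group over C130026I21Rik 13 (1 Up), the Mroh2a and Hjurp group 10 (1 Up) and the Sp110 and Sp140 group 8 (1 Up). Without positions in Sfi1 the share of Up at matched segments was 24.5% in the authors' deposited table. Without the 10 chains it was 32.2% at matched segments (19 Up, 40 Down) and 26.9% at susceptible-only segments in the authors' deposited table. The opposite direction stood at the chromosome 16 group with more resilient length and at the wider of the resilient-only segments in Nlgn1, chr3:25416201-25423400, which had 3 positions each in the authors' deposited table, all Up. The other resilient-only segment in Nlgn1, chr3:25453601-25456400, had 2 positions in the authors' deposited table, both Down. The susceptible-only segment over Smok2a and Smok2b had 9 positions, 3 of them Up, in the authors' deposited table.

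Shifts of nucleosomes were gathered at matched segments too. Of the 536 autosomal shifts in the authors' deposited table of resilient against susceptible mice, 91 lay within 1000 bp of matched segments, 9 of susceptible-only and 0 of resilient-only segments. Within 5000 bp the authors' deposited table had 95, 14 and 5. The susceptible-only set is the larger, with 711 segments over 1173 kb against 292 over 394 kb. Matched groups cover more, with 1326.6 kb of E2 in both lists, 714.4 kb in the susceptible and 160 kb in the resilient list alone. No density of shifts was computed, and the 0 at resilient-only segments rests on 394 kb. Within 1000 bp, Sfi1 had 22 shifts in the authors' deposited table, 14 with a positive sign, Gm13152 had 5, and Mroh2a and Sp140 had 4 each. At susceptible-only segments, the genes Dlgap2 and Gm13247 had 1 shift each in the authors' deposited table, of 80 bp. Of the other genes touched in the susceptible list alone, Mroh2a, Hjurp and Gm17019 had their shifts at matched segments. Hjurp and Gm17019 had 1 each in the authors' deposited table. The H3 and the ACF1 libraries cover the same groups of mice, and the names of the tables, not their content, give the pair of groups that each authors' deposited table compares.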

How the data were processed

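ACF1 ChIP-seq was deposited as 1 list per group, dividing each chromosome into 2 states in steps of 200 bp, with no score, and histone H3 data as tables of positions selected by the authors. CASAVA 1.8.2 and the genome build mm9 are named in the submitters' processing notes; which aligner and segmentation program made the files is not given in the sources used here, and depth is unknown. Deposited bounds count from 0 and are given here from 1. Gene bounds come from columns 6 to 10 of the 6 deposited H3 tables. Overlaps and groups were computed with Python 3.11.15, pandas 2.3.3, numpy 2.4.6 and networkx 3.6.1, with functions checked on simulated intervals, and figures drawn with matplotlib 3.10.9. With 1 list per group no test was run. Segments named are the 8 widest matched groups, the 6 widest unmatched of each list and the 6 groups that differ most; genes named are those they cover, the 10 with most bases in each list alone, the 10 of both lists that differ most and touched members of 24 gene lists, of which some are not reported here. Genes with a covered start, those of the H3 shifts, the tied genes and the Ugt1a genes were picked after their values were seen. The members and lists were chosen with earlier results of these data known, and the chains and the loss of Sfi1 after seeing the data. Alternatives were chromosomes, minimum width, joining, overlap, gene bounds and the H3 window.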

Additional observations from a re-analysis of the deposited data

How the results depend on the processing

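Of 74 alternatives over 13 results, 59 changed a value little and 15 moved one. Little meant within a factor of 1.5 of the main value or, for shares and the ratio of numbers, within its 95% binomial interval. By this rule, a length ratio of 1.49 with chromosomes X and Y counted as little changed. A reversal was defined only for the ratios of number and of length, and 0 were seen. The matched shares were 55.5% of the resilient and 33.6% of the susceptible list with chromosomes X and Y, 61.9% and 32.8% for widths of at least 1000 bp, 65.5% and 39.5% for at least 2000 bp, 34.9% and 20.7% with reciprocal overlap of 50%, and 45.1% and 24.7% without the 10 chains. Median widths became 2000 bp (resilient) and 1400 bp (susceptible) from 1000 bp up, and 4400 bp (resilient) and 5000 bp (susceptible) from 2000 bp up. With chromosomes X and Y they were 1200 bp (resilient) and 1000 bp (susceptible). The equal medians of the main setting thus did not hold in these settings, though 1200 and 1400 bp counted as little changed. Joining within 10000 bp left 7 groups of several resilient against 1 susceptible segment. The Up share at matched segments was 32.2% without the 10 chains in the authors' deposited table. The cause of these moves was not tested. No paired analysis was possible because each group has 1 list. Depth and replicate spread are unknown, so neither a difference in library depth nor 1 between animals can be told apart from a difference between the groups.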
